A study of Mus musculus with 24 samples.

Results

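The time course of a single agent was followed in Ocy454 cells, a mouse osteocytic cell line, by setting its effect at 8 h against its effect at 2 h. The agent is recorded under conflicting codes: the libraries are titled 2hD and 8hD and named 1,25D (1,25-dihydroxyvitamin D), while their data files carry the code L, the letter used elsewhere for LPA (lysophosphatidic acid). Both codes are therefore kept, and these libraries are called D/L libraries. The comparison used 12 of the series' 24 libraries, 3 in each of the 4 groups, namely D/L at 2 h, vehicle at 2 h, D/L at 8 h and vehicle at 8 h. All 12 came from the same line, with no dose given in the labels used here. For each gene the effect at a time was the log2 ratio of D/L to vehicle, and the difference of effects was the 8 h effect minus the 2 h effect. The other 12 libraries held the agent titled L (file code D) and both agents together. They entered the same fit, and so its filter, scaling and estimate of spread, but not the comparisons that sorted the genes. The study asked which signalling pathways the agents engage early and later after treatment on the way to making FGF23, a bone hormone that lowers blood phosphate.

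Cells that receive a growth signal through G protein-coupled receptors and the MAP kinase ERK usually answer in waves. Immediate early genes such as Fos and Egr1 are switched on first and shut off quickly, their products and a set of induced phosphatases and feedback inhibitors then shape the response, and genes for secreted and matrix proteins tend to follow. LPA acts through such receptors and also drives actin assembly, which frees the coactivator MRTF to work with serum response factor (SRF) at CArG boxes. The hormone 1,25D works by binding the vitamin D receptor, a nuclear receptor whose gene is Vdr, and Cyp24a1, the gene for the enzyme that degrades the hormone, is its best known target.

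No rise of Cyp24a1 was seen in the D/L libraries, and Vdr was lower. Cyp24a1 had 1 count in all over the 3 D/L libraries and 1 over the 3 vehicle libraries at 8 h, a ratio of 1.01 with a 95% exact counting interval of 0.0129 to 79.2, and likewise 1 and 1 at 2 h. At both times every D/L library was below every vehicle library for Vdr. Its levels were 169, 184 and 186 CPM (counts per M counts of the library, after scaling) in D/L against 236, 229 and 232 CPM in vehicle at 2 h, and 70.6, 74.3 and 71.9 CPM in D/L against 134, 112 and 130 CPM in vehicle at 8 h. The log2 effects were −0.37 ± 0.08 (SE) at 2 h and −0.80 ± 0.08 at 8 h, with adjusted p-values of 0.0018 and 4.7e-07. The difference, −0.42 ± 0.11, had an adjusted p of 0.027, but it passed the threshold in only 3 of the 12 fits that left out 1 library each, with adjusted p-values up to 0.11.

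Over all 24 libraries, totals ran from 32.96 to 33.84 M estimated counts, and mitochondrial genes took 9.01 to 16.92% of them. The highest mitochondrial share belonged to replicate 2 of the 8 h vehicle, which was also the highest of the 12 on both leading principal components and is called the library that stood apart. Among the 12 libraries the osteocyte marker Dmp1 averaged 2.92 and 2.71 CPM in D/L and vehicle at 2 h. At 8 h it averaged 2.01 and 2.04 CPM, while Sost and Mepe were near 0. Other osteocyte markers had higher means in D/L. Pdpn averaged 97.5 and 81.4 CPM in D/L and vehicle at 2 h and 81.2 and 60.9 CPM at 8 h. Phex averaged 0.929 and 0.482 CPM at 2 h and 0.988 and 0.392 CPM at 8 h in that order. Gja1 averaged 253 and 149 CPM at 2 h, but 116 and 129 CPM at 8 h. Osteoblast collagen was abundant, with Col1a1 at 3210 and 2950 CPM in D/L and vehicle at 2 h and 4480 and 3150 CPM at 8 h. At 8 h the library that stood apart held 53182 Col1a1 counts, and the other vehicle libraries 126860 and 145070. Of the other osteoblast markers, Col1a2 averaged 1520 to 2090 CPM and Runx2 50.6 to 68.7 CPM over the 4 groups. Sp7 averaged 0.388 and 0.788 CPM in D/L and vehicle at 2 h and 0.458 and 1.06 CPM at 8 h. Alpl averaged 1.22 to 1.94 CPM, and its mean, like that of Sp7, was lower in D/L at both times. Myod1 and Myog, which define skeletal muscle, had 0 counts in all 12 libraries. The other muscle markers examined were not absent. Acta1 averaged 2.97 and 2.34 CPM in D/L and vehicle at 2 h and 2.15 and 2.39 CPM at 8 h. Ckm averaged 0.124 to 0.287 CPM over the 4 groups. Nothing in the labels says whether the 3 libraries per group are separate cultures, so the p-values measure the spread between these libraries, which may be technical. In bulk RNA, less RNA per cell and fewer cells that make it cannot be told apart.

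At 2 h, 2285 of 16424 tested genes (13.9%) passed an adjusted p of 0.05 in edgeR's quasi-likelihood test with Benjamini-Hochberg adjustment, 1160 (7.06%) higher and 1125 (6.85%) lower in D/L. At 8 h, 2662 (16.2%) passed, 1296 (7.89%) higher and 1366 (8.32%) lower. The difference of effects passed for 685 genes (4.17%), of which 466 (2.84%) were more negative at 8 h and 219 (1.33%) more positive. Both effects passed for 822 genes, so most genes called at a given time were called at that time alone. Such a pattern of calls does not by itself place a gene in a time class, and the sorting therefore also required the test of the difference.

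Genes were called early only where the 2 h effect and the difference passed and the 8 h effect did not, sustained where both effects passed with the same sign, and late where the 8 h effect and the difference passed and the 2 h effect did not. The early only class held 163 genes higher and 105 lower in D/L, the sustained class 497 higher and 302 lower, and the late class 77 higher and 198 lower. A further 23 genes were called in opposite directions at the 2 times. The largest set, 2760 genes, was called at a single time without a called difference, 1195 of them at 2 h and 1565 at 8 h, and remained unresolved. The boundary was fine: Bach1 (2 h effect 0.35, 8 h effect −0.09, adjusted p of the difference 0.0496) fell inside the early only class, and Btaf1 (0.62, 0.19 and 0.0504) just outside. At the late boundary Phldb2 (0.12, −0.22 and 0.0495) fell inside and Hhex (−0.16, 0.90 and 0.0501) outside. In the plot of 2 h against 8 h effects, early only genes lie along the horizontal axis, late genes along the vertical axis and sustained genes on both sides of the diagonal.

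**Figure D1:**
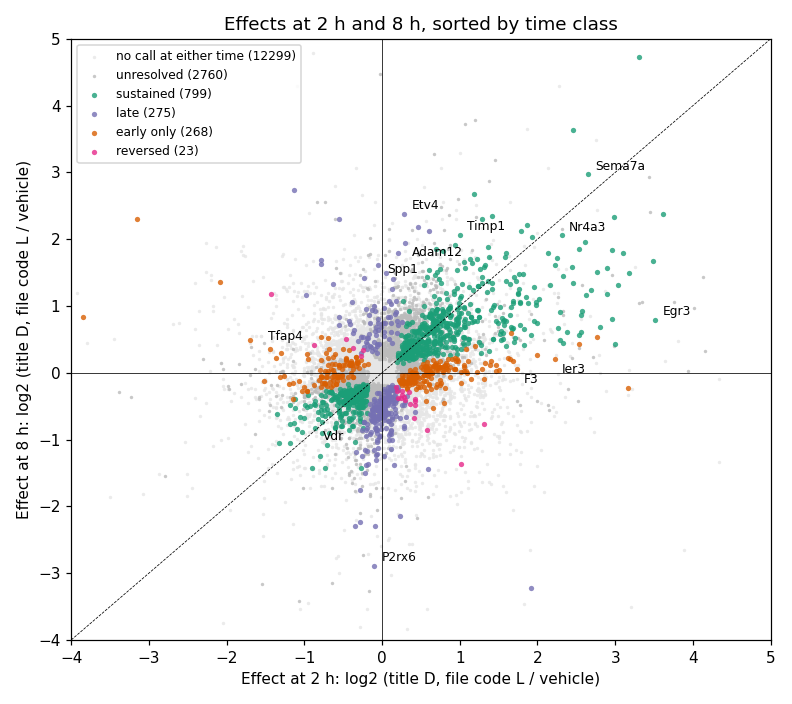
Each point is a tested gene, with its log2 ratio of D/L (title D, file code L) to vehicle at 2 h on the horizontal axis and at 8 h on the vertical axis, coloured by time class, and the dashed line marks equal effects. Sema7a and Nr4a3 lie near the dashed line, Egr3 and Ier3 far below it, and Etv4, Adam12 and Timp1 above it; 54 genes fall outside the plotted range, 8 of them called at 2 h or 8 h.

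Genes of the early only class that were higher in D/L had a median effect of 0.61 at 2 h and 0.00 at 8 h. The medians over all tested genes were 0.00 and 0.00. The vehicle level was not steady, and its median log2 change from 2 h to 8 h was −0.28 in these genes. It was 0.06 in early only genes lower in D/L. In sustained genes it was −0.43 for those higher and 0.17 for those lower. In late genes it was 0.00 and 0.12 in that order. Ier3, an immediate early survival gene, stood at 196, 201 and 222 CPM in D/L against 45.6, 43.8 and 43.4 CPM in vehicle at 2 h, and at 33, 34.3 and 34.5 CPM in D/L against 29.3, 31.6 and 27.6 CPM in vehicle at 8 h. The 2 h groups were far apart, and the 8 h groups lay close together without overlapping. Its log2 effect was 2.22 ± 0.09 at 2 h and 0.20 ± 0.09 at 8 h, a difference of −2.02 ± 0.13 (adjusted p = 3.3e-09). Atf3, a stress-induced transcription factor, had 44.5, 44.0 and 44.0 CPM in D/L against 11.4, 10.4 and 11.4 CPM in vehicle at 2 h, and 3.64, 3.96 and 4.26 CPM in D/L against 3.31, 3.04 and 3.55 CPM in vehicle at 8 h. By 8 h both groups were below the 2 h vehicle level, and the difference of effects was −1.74 ± 0.17 (adjusted p = 1.2e-06). Fosb, a FOS family subunit of AP-1, had an effect of 2.76 ± 0.21 at 2 h and 0.54 ± 0.23 at 8 h (adjusted p = 0.11), with a difference of −2.22 ± 0.31. Csrnp1, a nuclear factor, followed with effects of 2.54 ± 0.17 and 0.43 ± 0.19 and a difference of −2.10 ± 0.25. The absence of an 8 h call was the less certain part for both: 1 of the 12 fits without a library called Fosb at 8 h (0.81, adjusted p = 0.024, without replicate 3 of the 8 h vehicle), and 1 called Csrnp1 (0.62, adjusted p = 0.038, without replicate 1 of the 8 h D/L group).

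Thbs1, which encodes the matrix protein thrombospondin 1, had 2630, 2480 and 2370 CPM in D/L against 870, 911 and 869 CPM in vehicle at 2 h, and 370, 390 and 373 CPM in D/L against 373, 320 and 409 CPM in vehicle at 8 h. The 8 h groups overlapped, and the log2 effect was 1.5 ± 0.09 at 2 h and 0.04 ± 0.09 at 8 h. F3, the gene for tissue factor, which starts blood coagulation, had 168, 168 and 185 CPM in D/L against 48.5, 57.1 and 50.9 CPM in vehicle at 2 h, and 41.5, 45.2 and 43.0 CPM in D/L against 42.8, 43.9 and 38.5 CPM in vehicle at 8 h. Adamts1, a secreted metalloprotease, differed between the times by −1.44 ± 0.12 (adjusted p = 9.2e-08), and Tgfb2, a TGF-beta ligand, by −1.17 ± 0.11 (adjusted p = 1.2e-06). Plau, the urokinase plasminogen activator, had effects of 1.02 ± 0.10 at 2 h and −0.15 ± 0.10 at 8 h. Gja1, which encodes the osteocyte gap junction protein connexin 43, had 246, 276 and 236 CPM in D/L against 135, 154 and 158 CPM in vehicle at 2 h, and 115, 117 and 118 CPM in D/L against 127, 143 and 117 CPM in vehicle at 8 h, a difference of −0.91 ± 0.13 (adjusted p = 8.8e-05). Each of these 6 genes passed the test of the difference in all 12 fits without a library and was called at 8 h in none of them.

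Early only genes also included Dusp1, the phosphatase that inactivates MAP kinases, and the actin-linked genes Lima1 and Fhl2. Dusp1 had 73.5, 81.8 and 88.6 CPM in D/L against 30.4, 30.1 and 31.6 CPM in vehicle at 2 h, and 24.3, 28.7 and 25.9 CPM in D/L against 25.8, 23.9 and 20 CPM in vehicle at 8 h. Lima1, an actin-bundling LIM protein, had 871, 892 and 818 CPM in D/L against 418, 469 and 461 CPM in vehicle at 2 h, and 296, 310 and 294 CPM in D/L against 280, 315 and 273 CPM in vehicle at 8 h. Fhl2, a LIM-only coregulator, had 97.7, 102 and 106 CPM in D/L against 56.4, 56.2 and 56.6 CPM in vehicle at 2 h, and 34.6, 35.5 and 35.2 CPM in D/L against 33, 37.2 and 32.1 CPM in vehicle at 8 h. For all 3 genes the 2 h groups were separate and the 8 h groups overlapped. The differences were −1.22 ± 0.16, −0.89 ± 0.11 and −0.81 ± 0.11 for Dusp1, Lima1 and Fhl2. Ch25h, the cholesterol 25-hydroxylase, had 12.8, 13.2 and 15.2 CPM in D/L against 4.32, 3.36 and 5.16 CPM in vehicle at 2 h, and 2.00, 1.64 and 1.34 CPM in D/L against 1.15, 1.46 and 1.82 CPM in vehicle at 8 h, a difference of −1.52 ± 0.24 (adjusted p = 0.00046).

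The promoters of these early only genes are shown because the class held CArG boxes, the SRF element, and cAMP response elements (CRE, TGACGTCA) at higher shares than the tested genes as a whole. The 250 bases before the RefSeq start site listed first for a gene were searched on both strands for 11459 tested genes. That site need not be the one used in these cells. Of the genes searched, 128 were early only and higher in D/L. A CArG box was found in 8.59% of these 128, in 2.14% of 373 sustained and higher genes, in 0% of 61 late and higher genes and in 1.17% of all. The CRE shares were 7.03%, 4.29%, 0% and 2.58% in the same order. E-box (CACGTG) shares were 17.2%, 7.77%, 11.5% and 7.92% in that order, and TATA box (TATAAA) shares 10.2%, 12.9%, 3.28% and 7.56%. The sustained share was thus above the early only share for the TATA box. AP-1 sites (TGACTCA or TGAGTCA), searched by the same rule, were found in 7.03%, 4.83%, 3.28% and 3.36%. NF-kB sites were found in 9.38%, 6.17%, 4.92% and 4.31%. For EGR sites (GCGTGGGCG or GCGGGGGCG) the shares were 7.81%, 10.2%, 8.2% and 5.4%. These are matches of letters and not shown binding sites, and no test was made of the shares. The sequences are from RefSeq on GRCm38.p6, read 5′ to 3′ on the strand of the gene and ending at the base before its start site, with matches in capitals. Lima1 (chr15:99820150-99820399, minus strand) has a CArG box 47 to 38 bases before the start. Fhl2 (chr1:43196762-43197011, minus strand) has a CArG box at 96 to 87 and a TATA box on the opposite strand at 28 to 23. Dusp1 (chr17:26508473-26508722, minus strand) has a CRE at 143 to 136 and an E-box at 126 to 121, and Ch25h (chr19:34475149-34475398, minus strand) has a TATA box at 151 to 146 and a CRE at 61 to 54. Vcl (chr14:20929148-20929397, plus strand), a sustained gene whose effect weakened, has a CArG box at 227 to 218. No capitalised match overlaps another.
Lima1: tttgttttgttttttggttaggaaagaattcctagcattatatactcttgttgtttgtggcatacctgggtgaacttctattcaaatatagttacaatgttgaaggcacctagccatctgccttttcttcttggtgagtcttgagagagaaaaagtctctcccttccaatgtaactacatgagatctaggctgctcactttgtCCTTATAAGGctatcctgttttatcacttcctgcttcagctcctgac
Fhl2: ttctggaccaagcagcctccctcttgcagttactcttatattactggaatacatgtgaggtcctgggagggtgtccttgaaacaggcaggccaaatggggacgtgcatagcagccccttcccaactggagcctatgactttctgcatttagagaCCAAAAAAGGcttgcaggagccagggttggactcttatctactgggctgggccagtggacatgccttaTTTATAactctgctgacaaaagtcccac
Dusp1: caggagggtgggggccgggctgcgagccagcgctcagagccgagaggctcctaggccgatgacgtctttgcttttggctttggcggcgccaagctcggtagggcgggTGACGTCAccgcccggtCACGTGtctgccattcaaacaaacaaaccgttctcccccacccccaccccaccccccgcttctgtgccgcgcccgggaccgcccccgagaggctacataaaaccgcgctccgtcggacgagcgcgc
Ch25h: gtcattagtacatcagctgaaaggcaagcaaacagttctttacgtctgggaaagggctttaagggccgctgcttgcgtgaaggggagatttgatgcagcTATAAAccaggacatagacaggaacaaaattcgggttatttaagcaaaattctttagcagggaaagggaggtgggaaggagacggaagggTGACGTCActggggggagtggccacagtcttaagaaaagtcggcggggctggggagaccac
Vcl: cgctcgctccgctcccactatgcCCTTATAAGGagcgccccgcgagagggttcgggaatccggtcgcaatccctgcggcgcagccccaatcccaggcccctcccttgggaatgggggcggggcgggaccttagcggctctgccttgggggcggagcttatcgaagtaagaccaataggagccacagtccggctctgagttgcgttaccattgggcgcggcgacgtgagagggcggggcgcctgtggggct

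Early only genes that were lower in D/L had a median effect of −0.63 at 2 h and 0.06 at 8 h. Bmf, a pro-apoptotic BCL2 family member, had 1.28, 0.775 and 1.81 CPM in D/L against 3.92, 3.59 and 3.61 CPM in vehicle at 2 h, and 6.11, 5.45 and 6.91 CPM in D/L against 7.21, 6.27 and 6.57 CPM in vehicle at 8 h. The D/L libraries were below the vehicle libraries at 2 h, and the groups overlapped at 8 h, with a difference of 1.41 ± 0.25 (adjusted p = 0.0016). Klhl33, a Kelch-like gene, had 2.64, 2.11 and 1.84 CPM in D/L against 4.40, 4.84 and 4.57 CPM in vehicle at 2 h, and a difference of 0.94 ± 0.19 (adjusted p = 0.0049). Mvd, the mevalonate decarboxylase of cholesterol synthesis, had 26.7, 26.1 and 32.4 CPM in D/L against 43.1, 39.7 and 41.8 CPM in vehicle at 2 h, and 28.4, 26.4 and 26.0 CPM in D/L against 22.8, 26.8 and 24.9 CPM in vehicle at 8 h. Of 20 tested genes of cholesterol synthesis and uptake, 5 were higher and 3 lower at 2 h, beside 7.06% higher and 6.85% lower over all tested genes. At 8 h, 3 were higher and 1 was lower, beside 7.89% and 8.32%, so the lower count at 8 h was not above that of all genes.

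**Figure D2:**
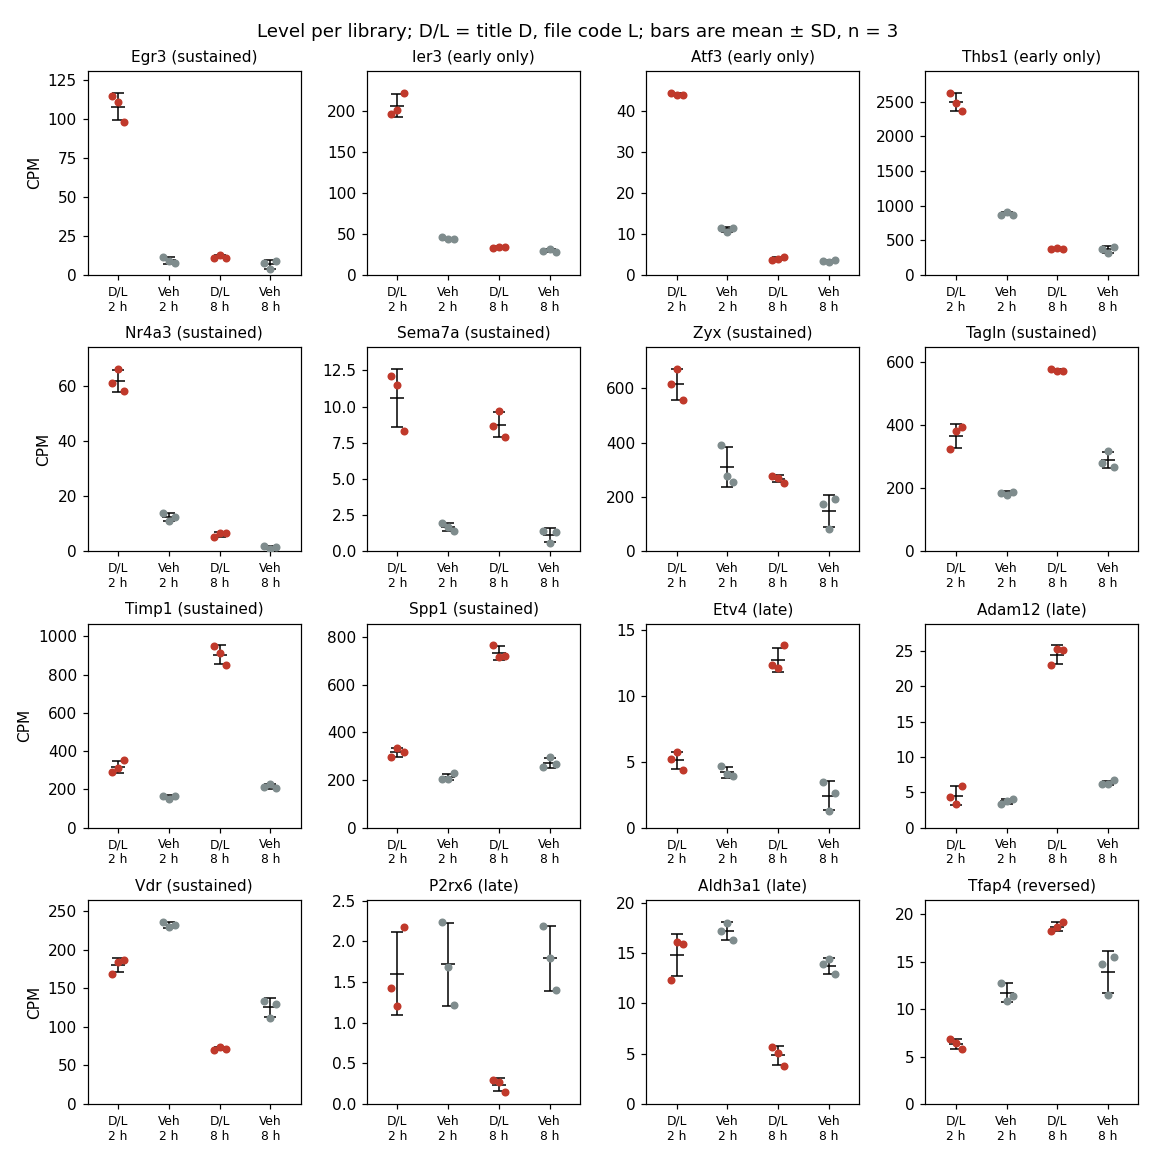
Levels in CPM of 16 genes in each library (points), with mean and SD (bars, n = 3), in D/L (title D, file code L) and vehicle at 2 h and 8 h, with the time class beside each name. For Ier3, Atf3 and Thbs1 the groups lie far apart at 2 h and close together or overlapping at 8 h, for Sema7a, Nr4a3 and Tagln they are separate at both times, and for Etv4, Adam12, P2rx6 and Aldh3a1 they lie close or overlap at 2 h and are far apart at 8 h.

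Sustained genes that were higher in D/L had nearly equal median effects, 0.71 at 2 h and 0.63 at 8 h, but single members ran from strong decline to growth. Of the 497, 71 were weaker at 8 h by the test of the difference, 15 were stronger, and for 411 the difference did not pass, which does not show that the effects were equal. Egr3 and Egr2 declined most among those with a mean of at least 1 CPM. Egr2, an EGR zinc-finger factor, had 128, 139 and 156 CPM in D/L against 18.6, 17.2 and 17.1 CPM in vehicle at 2 h, and 19.1, 23.5 and 17.7 CPM in D/L against 15.5, 14 and 15 CPM in vehicle at 8 h. Its 8 h effect of 0.43 ± 0.10 was small beside the 3.0 ± 0.11 at 2 h, and without replicate 2 of the 8 h D/L group it was 0.30 (adjusted p = 0.071). For Egr3 the 8 h level was 11.1, 13.0 and 11.0 CPM in D/L against 7.63, 3.48 and 9.17 CPM in vehicle, with the lowest value in the vehicle library that stood apart. Without that library the 8 h effect of Egr3 was 0.48 (adjusted p = 0.16) in place of 0.79 (adjusted p = 0.030), while the difference, −2.73 ± 0.33, passed in all 12 fits. Fos, the founding AP-1 subunit, likewise had an 8 h effect of 0.56 ± 0.18 (adjusted p = 0.039) and of 0.48 (adjusted p = 0.15) without that library. For Egr3 and Fos the call at 8 h held in 8 of the 12 fits without a library, so their place between sustained and early only was not settled.

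Other weakening genes kept a clear 8 h effect. Errfi1, which encodes a feedback inhibitor of the EGF receptor, had 1120, 1190 and 1170 CPM in D/L against 147, 159 and 160 CPM in vehicle at 2 h, and 163, 175 and 172 CPM in D/L against 77.8, 77.5 and 69.9 CPM in vehicle at 8 h. The groups were separate at both times, with effects of 2.90 ± 0.08 and 1.18 ± 0.08 and a difference of −1.72 ± 0.11 (adjusted p = 3.3e-09). Dusp6, the ERK-specific phosphatase, had 131, 133 and 123 CPM in D/L against 25.2, 26.3 and 29.0 CPM in vehicle at 2 h, and 34.3, 38.1 and 37.5 CPM in D/L against 21.5, 24.3 and 23.2 CPM in vehicle at 8 h. Ptgs2, the inducible cyclooxygenase, had effects of 2.80 ± 0.10 and 0.69 ± 0.10. Ereg, the EGF family ligand epiregulin, had effects of 3.48 ± 0.18 and 1.67 ± 0.21. Nr4a1, an orphan nuclear receptor, had effects of 3.03 ± 0.17 and 1.32 ± 0.16 and a difference of −1.70 ± 0.23 (adjusted p = 6e-05). Vcl, the focal adhesion protein vinculin, had effects of 0.96 ± 0.06 and 0.28 ± 0.06.

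Chemokine and cytokine genes were also among the weakening members. Ccl2, a monocyte chemoattractant, had 729, 873 and 1010 CPM in D/L against 207, 194 and 185 CPM in vehicle at 2 h, and 113, 120 and 107 CPM in D/L against 44.7, 50.9 and 40.6 CPM in vehicle at 8 h. Levels were lower at 8 h than at 2 h in both groups, the groups were separate at both times, and the difference of effects was −0.84 ± 0.16 (adjusted p = 0.0029). Cxcl1, a neutrophil chemoattractant, had effects of 1.82 ± 0.11 and 0.41 ± 0.11, and Lif, an IL-6 family cytokine, 2.56 ± 0.12 and 0.86 ± 0.13. Il6 itself had 3.34, 4.87 and 3.22 CPM in D/L against 0.170, 0.290 and 0.233 CPM in vehicle at 2 h but 0.119, 0.122 and 0.175 CPM in D/L against 0.177, 0.0310 and 0 CPM in vehicle at 8 h. At 8 h it was too sparse to resolve, and its difference of −3.05 ± 0.89 had an adjusted p of 0.055. Il12a, the gene for the p35 subunit of interleukin 12, had effects of 0.71 ± 0.42 and 0.47 ± 0.37 and a difference of −0.24 ± 0.55 (adjusted p = 0.87).

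Among sustained genes without a called difference, Sema7a had the largest mean effect that met the naming rule. Sema7a, a membrane-anchored semaphorin, had 12.1, 11.5 and 8.34 CPM in D/L against 1.96, 1.71 and 1.40 CPM in vehicle at 2 h, and 8.64, 9.68 and 7.93 CPM in D/L against 1.42, 0.559 and 1.34 CPM in vehicle at 8 h. The groups were separate at both times, which the naming rule required, and the effects were 2.65 ± 0.25 and 2.97 ± 0.26. Nr4a3, a relative of Nr4a1, had 61.3, 66.3 and 58.2 CPM in D/L against 14, 11 and 12.4 CPM in vehicle at 2 h, and 5.13, 6.60 and 6.53 CPM in D/L against 1.83, 0.931 and 1.59 CPM in vehicle at 8 h. Although its level was far lower at 8 h in both groups, its effects were 2.31 ± 0.15 and 2.06 ± 0.19, a difference of −0.25 ± 0.24 (adjusted p = 0.64). Tagln, the actin-binding protein transgelin, showed the opposite trend in level, with 323, 380 and 394 CPM in D/L against 186, 178 and 189 CPM in vehicle at 2 h, and 577, 571 and 571 CPM in D/L against 281, 316 and 268 CPM in vehicle at 8 h. Its effect was 0.99 ± 0.10 at both times. Traf1, a TNF receptor adaptor, had effects of 1.36 ± 0.15 and 1.88 ± 0.16, and Osmr, the oncostatin M receptor, 0.60 ± 0.07 and 0.85 ± 0.07.

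The 8 h effects of some sustained genes rested partly on the vehicle library that stood apart. Zyx, the focal adhesion protein zyxin, had 277, 271 and 252 CPM in D/L against 173, 80.7 and 194 CPM in vehicle at 8 h, and its 8 h effect was 0.84 ± 0.25 with all libraries and 0.54 (adjusted p = 0.15) without replicate 2 of the vehicle. Jun, the AP-1 subunit, had 39.8, 38.5 and 38.0 CPM in D/L against 15.9, 9.28 and 20.2 CPM in vehicle at 8 h, and its 8 h effect of 1.35 ± 0.23 was 1.11 (adjusted p = 0.0024) without it. Egr1 had 215, 213 and 197 CPM in D/L against 134, 63.5 and 135 CPM in vehicle, and its 8 h effect was 0.91 ± 0.24 with that library and 0.64 (adjusted p = 0.069) without it. Replicate 2 was the lowest of the 3 vehicle libraries for all 3 genes. The part of its composition in these effects was not tested.

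Timp1, Spp1, Lox, Tnc and Ltbp1, which encode secreted or matrix proteins, were among the 15 sustained genes with a stronger effect at 8 h. Timp1, a tissue inhibitor of metalloproteinases, had 292, 312 and 354 CPM in D/L against 166, 148 and 164 CPM in vehicle at 2 h, and 949, 911 and 852 CPM in D/L against 211, 230 and 207 CPM in vehicle at 8 h. Its effects were 1.00 ± 0.10 and 2.07 ± 0.10, a difference of 1.07 ± 0.14 (adjusted p = 4e-05). Spp1, the gene for the bone matrix protein osteopontin, had 295, 336 and 319 CPM in D/L against 202, 206 and 228 CPM in vehicle at 2 h, and 764, 714 and 718 CPM in D/L against 256, 295 and 265 CPM in vehicle at 8 h, a difference of 0.85 ± 0.13 (adjusted p = 0.00041). Lox, the lysyl oxidase that crosslinks collagen, had 232, 243 and 216 CPM in D/L against 155, 141 and 136 CPM in vehicle at 2 h, and 442, 449 and 470 CPM in D/L against 164, 132 and 195 CPM in vehicle at 8 h. D/L libraries were above vehicle at both times for these 3 genes, and further above at 8 h. Tnc, the matrix glycoprotein tenascin C, had effects of 1.13 ± 0.09 and 1.71 ± 0.09, and Ltbp1, which binds latent TGF-beta, 0.32 ± 0.07 and 0.75 ± 0.07. Timp1, Spp1, Lox, Tnc and Ltbp1 all passed the test of the difference in each of the 12 fits without a library. Under other settings, Tnc missed it with the 4 compared groups alone (adjusted p = 0.052) and Ltbp1 without the filter on low counts (adjusted p = 0.06). The growing effect was not general among matrix genes: of 26 tested members of the matrix remodelling and adhesion list, the difference was more positive in 4 and more negative in 7, beside 1.33% and 2.84% of all tested genes.

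Late genes that were higher in D/L had a median effect of −0.08 at 2 h and 0.75 at 8 h. ETS factors of the PEA3 group, which are transcribed under ERK control in many tissues, were among them. Etv4 had 5.19, 5.71 and 4.38 CPM in D/L against 4.69, 4.03 and 3.90 CPM in vehicle at 2 h, and 12.3, 12.1 and 13.8 CPM in D/L against 3.43, 1.24 and 2.63 CPM in vehicle at 8 h. The 2 h groups overlapped, the 8 h groups did not, and the difference was 2.11 ± 0.35 (adjusted p = 0.00062). Its relative Etv5 had 21.5, 21.6 and 21.7 CPM in D/L against 19.4, 21.6 and 19.6 CPM in vehicle at 2 h, and 20.3, 20.7 and 20.2 CPM in D/L against 11.8, 11.8 and 10.8 CPM in vehicle at 8 h. Here the D/L level was alike at the 2 times and the vehicle level was lower at 8 h. The effect was 0.83 ± 0.08 at 8 h. Ccnd1, which encodes cyclin D1, had a smaller late effect of 0.46 ± 0.08, with 88.7, 93.0 and 87.4 CPM in D/L against 66.3, 67.0 and 62.6 CPM in vehicle at 8 h.

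Adam12, a membrane metalloprotease, had 4.28, 3.41 and 5.95 CPM in D/L against 3.35, 3.76 and 4.05 CPM in vehicle at 2 h, and 23.0, 25.3 and 25.1 CPM in D/L against 6.15, 6.18 and 6.71 CPM in vehicle at 8 h, a difference of 1.66 ± 0.20 (adjusted p = 2.2e-05). Anxa8, a phospholipid-binding annexin, had 17.3, 18.5 and 17.4 CPM in D/L against 15.6, 16.0 and 14.4 CPM in vehicle at 2 h, and 78.5, 71.3 and 75.6 CPM in D/L against 20.5, 25.2 and 19.0 CPM in vehicle at 8 h, a difference of 1.59 ± 0.15 (adjusted p = 6.6e-07). The Anxa8 groups were also separate at 2 h, though the effect of 0.21 ± 0.10 was not called. Col5a3, a fibrillar collagen chain, had effects of 0.46 ± 0.24 at 2 h (adjusted p = 0.25) and 2.19 ± 0.25 at 8 h. Ltbp2, a relative of Ltbp1, had effects of 0.60 ± 0.26 and 2.12 ± 0.25, and its difference of 1.52 ± 0.36 became 1.33 (adjusted p = 0.061) without replicate 1 of the 2 h vehicle. Tspan11, a tetraspanin, had 0.668, 0.527 and 0.337 CPM in D/L against 0.881, 0.405 and 1.37 CPM in vehicle at 2 h, and 4.80, 5.63 and 4.49 CPM in D/L against 1.71, 1.46 and 1.45 CPM in vehicle at 8 h.

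Late genes that were lower in D/L were more numerous, with a median effect of 0.01 at 2 h and −0.58 at 8 h. Aldh3a1, an aldehyde dehydrogenase, had 12.3, 16.1 and 15.9 CPM in D/L against 17.2, 18 and 16.3 CPM in vehicle at 2 h, and 5.63, 5.11 and 3.82 CPM in D/L against 13.9, 14.4 and 12.9 CPM in vehicle at 8 h, a difference of −1.28 ± 0.19 (adjusted p = 0.00027). Adh1, an alcohol dehydrogenase, had 4.89, 4.65 and 5.95 CPM in D/L against 5.91, 5.94 and 6.09 CPM in vehicle at 2 h, and 1.67, 2.04 and 2.30 CPM in D/L against 4.82, 5.90 and 4.92 CPM in vehicle at 8 h. Adhfe1, an iron-dependent alcohol dehydrogenase family member, had effects of −0.28 ± 0.18 and −1.76 ± 0.20. Among the named genes of the class the largest fall was in P2rx6, an ATP-gated channel subunit, with 1.43, 1.21 and 2.18 CPM in D/L against 2.24, 1.68 and 1.22 CPM in vehicle at 2 h, and 0.298, 0.274 and 0.146 CPM in D/L against 2.19, 1.80 and 1.40 CPM in vehicle at 8 h. Tgm5, a transglutaminase, had effects of −0.09 ± 0.28 and −2.30 ± 0.30. These 5 genes kept the call of the difference in all 12 fits without a library, but the size of the class did not hold: it was 98 without replicate 2 of the 8 h vehicle, 117 to 130 without replicate 1, 2 or 3 of the 8 h D/L group, 125 without replicate 1 of the 8 h vehicle and 123 without replicate 1 of the 2 h vehicle.

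Sustained genes that were lower in D/L had median effects of −0.37 at 2 h and −0.36 at 8 h. Pik3ip1, an inhibitor of PI3 kinase, had 4.92, 3.82 and 4.54 CPM in D/L against 8.75, 10.9 and 10.3 CPM in vehicle at 2 h, and 8.46, 9.49 and 8.34 CPM in D/L against 15.1, 15.4 and 14.3 CPM in vehicle at 8 h. Id3, a BMP-induced inhibitor of helix-loop-helix factors, had 87.7, 102 and 127 CPM in D/L against 140, 145 and 142 CPM in vehicle at 2 h, and 75.6, 76.5 and 70.6 CPM in D/L against 133, 137 and 133 CPM in vehicle at 8 h. Both genes were separate between groups at both times. Id1 followed with effects of −0.61 ± 0.15 and −0.81 ± 0.16. Of the 10 tested BMP targets and ID genes, 6 were lower and 1 higher at 2 h. At 8 h, 3 were lower and 1 higher. No difference was called in this list, beside 4.17% of all tested genes. Over all tested genes, 6.85% were lower and 7.06% higher at 2 h, and 8.32% lower and 7.89% higher at 8 h, so a single higher member is near the share of all genes. Plk1, a mitotic kinase, had 77.4, 88.7 and 85.1 CPM in D/L against 136, 127 and 135 CPM in vehicle at 2 h, and 128, 122 and 120 CPM in D/L against 155, 157 and 140 CPM in vehicle at 8 h. Its effect weakened by 0.37 ± 0.10 (adjusted p = 0.027), a call that held in 5 of the 12 fits without a library, and of 24 tested mitosis genes 10 were lower at 2 h and 6 at 8 h, beside 6.85% and 8.32% of all.

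Across the gene lists, the share of members higher in D/L was large at both times for several signalling groups. Of 27 tested immediate early transcription factors, 25 were higher at 2 h and 20 at 8 h, with median effects of 1.99 and 0.79, and 15 had a called difference, all more negative at 8 h. The list held 6 early only and 19 sustained members. Of 21 ERK pathway feedback inhibitors and ETS targets, 13 were higher at 2 h and 15 at 8 h, 10 had a more negative and 2 a more positive difference. The 2 were Etv4 and Etv5. Of 25 NF-kB subunits, inhibitors and target chemokines, 21 were higher at 2 h and 17 at 8 h, and 9 had a more negative difference. For these lists the shares called higher stood far above the 7.06% and 7.89% of all genes called higher at 2 h and 8 h. The difference was more negative for 2.84% and more positive for 1.33% of all tested genes. The lists here and below were chosen with earlier results of these data known. Their shares therefore describe the lists and are not a test of them.

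Of 22 actin cytoskeleton genes driven by SRF and MRTF, 15 were higher at 2 h and 10 at 8 h, and of 21 YAP and TEAD targets 11 and 9, beside 7.06% and 7.89% of all genes. Ribosome biogenesis and MYC-linked nucleolar genes were more often called higher at the later time, 9 of 24 at 2 h and 19 at 8 h. Their median effects were 0.20 and 0.36. A difference was called for 1 of the 24, near the 4.17% of all tested genes. The shares of all genes called lower were 6.85% at 2 h and 8.32% at 8 h. None of 24 DNA replication and G1/S genes was called at 2 h, and 5 were lower and 1 higher at 8 h, the higher count being below the 7.89% of all genes. Of 18 interferon response genes, 6 were lower and 1 higher at 2 h, and 6 were lower and 0 higher at 8 h. Osteocyte markers were higher for 4 of 11 tested members at 2 h and for 5 at 8 h. In that list 0 members were called lower at either time. Of 17 vitamin D receptor targets, 7 were higher and 1 lower at 2 h, and 6 were higher and 1 lower at 8 h, the lower member being Vdr itself at both times. Of 17 genes for LPA receptors and LPA metabolism, 1 was higher and 2 were lower at 2 h, and 2 were higher and 0 lower at 8 h, counts near the shares of all genes. The higher one at 2 h was Lpar1, an LPA receptor gene, with 83.2, 81.6 and 83.8 CPM in D/L against 66.4, 64.5 and 71.5 CPM in vehicle at 2 h and 46.1, 49.0 and 42.2 CPM in D/L against 49.3, 53.1 and 44.0 CPM in vehicle at 8 h. Its 2 h effect, 0.30 ± 0.09, was called in 7 of the 12 fits without a library. Fgf23 had 0 counts in D/L and 1 in vehicle at 2 h, and 1 in D/L and 3 in vehicle at 8 h, a ratio of 0.336 at 8 h (95% exact counting interval 0.00641 to 4.19). These counts cannot resolve a change within that interval.

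**Figure D3:**
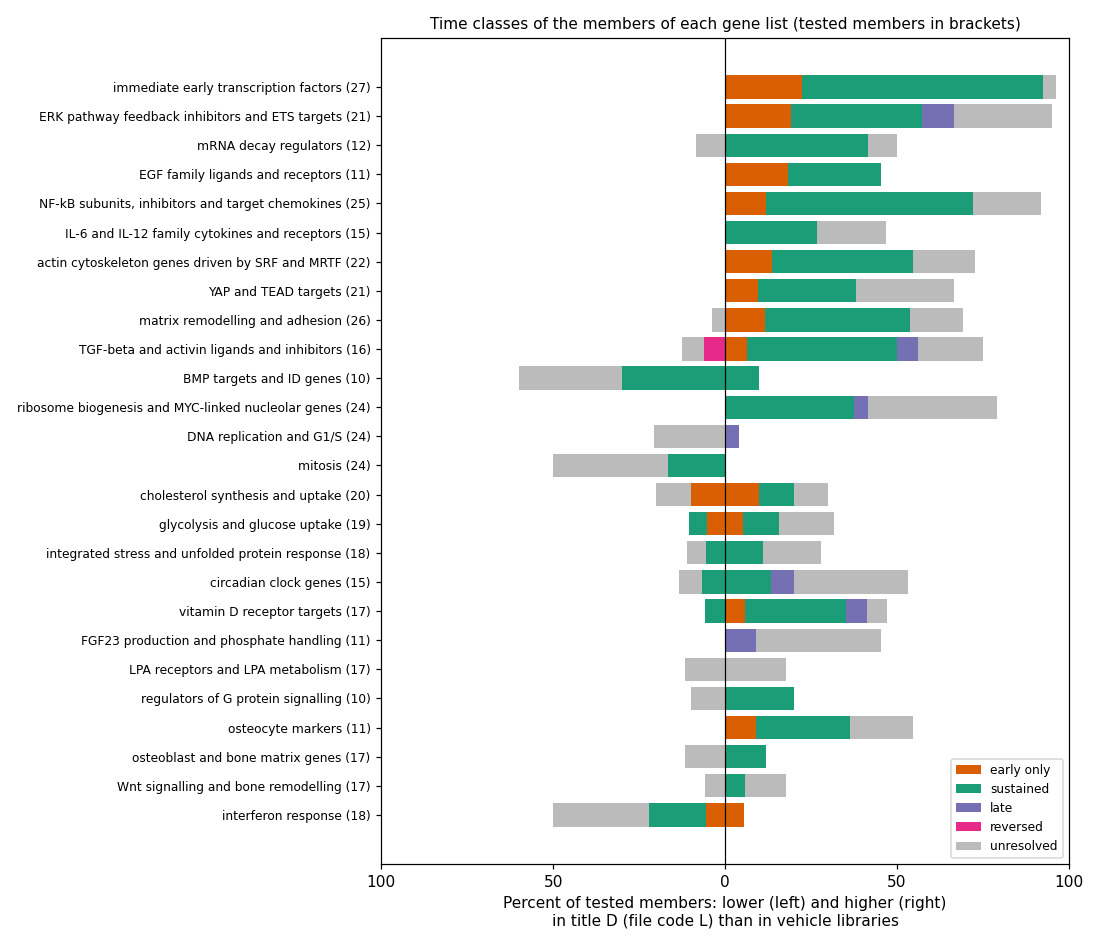
For each gene list, bars give the percent of tested members in each time class, to the right for members higher and to the left for members lower in D/L (title D, file code L) than in vehicle. Immediate early, ERK feedback and NF-kB lists are filled mostly by sustained and early only members on the right, while BMP, mitosis and interferon lists extend to the left.

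The classes were then read in both agents together against the agent titled L (file code D). These groups differ by the addition of the D/L agent and share no library with the comparisons above. They did enter the same fit, so the reading is not fully independent of the sorting. With the 4 compared groups fitted alone, 173 of the 268 early only, 617 of the 799 sustained and 169 of the 275 late genes kept their class. Of the 163 early only genes higher in D/L, 150 were called higher at 2 h when the agent was added, beside 9.22% of all genes, and 34 were called higher and 18 lower at 8 h, beside 14.0% and 8.91%. The difference of effects was called more negative for 110 of them, beside 10.7% of all. Of the 105 early only genes lower in D/L, 72 were called lower at 2 h, beside 9.48%, and 67 had a more positive difference, beside 14.2%. Of the 77 late genes higher in D/L, 8 were called higher at 2 h, near the 9.22% of all genes. At 8 h, 52 were called higher, beside 14.0%, and 41 had a more positive difference, beside 14.2%. Of the 198 late genes lower in D/L, 18 were called lower at 2 h and 119 at 8 h, beside 9.48% and 8.91% of all. A more negative difference was called for 58 of them, beside 10.7%. Fewer genes met the full rule of their own class in these libraries. It was met by 77 of the 163 early only higher and 51 of the 105 early only lower genes. Among late genes it was met by 35 of the 77 higher and 51 of the 198 lower.

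Fewer sustained genes were called at 8 h than at 2 h in those libraries. Of the 497 higher, 458 were called higher at 2 h and 257 at 8 h, and the median effect was 0.82 at 2 h and 0.33 at 8 h. The difference was called more negative for 242 of them, beside 10.7% of all genes, and 186 met the rule for early only and 229 that for sustained in these libraries. The 302 lower had 254 calls at 2 h and 103 at 8 h, with medians of −0.39 and −0.16. The difference was called more positive for 121 of them, beside 14.2% of all, and 110 met the rule for early only and 79 that for sustained. Anxa8 and Timp1 had larger effects at 8 h in these libraries too, with differences of 1.83 (adjusted p = 9.7e-08) and 1.31 (adjusted p = 1.8e-06). Etv4 had effects of 0.70 and 1.40 and a difference of 0.70 (adjusted p = 0.15), Lox had 0.82 and 0.86, and Tnc had 1.35 at both times. Vdr had an effect of −0.29 (adjusted p = 0.0097) in the 2 h pair of these groups, and −0.19 (adjusted p = 0.082) in the 8 h pair. Whether the time course differs with the other agent present was tested directly by a three-way contrast. It passed for 0 genes in edgeR, with a smallest adjusted p of 0.092, while 4572 genes (27.8%) had an unadjusted p under 0.05 and DESeq2 called 896.

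**Figure D4:**
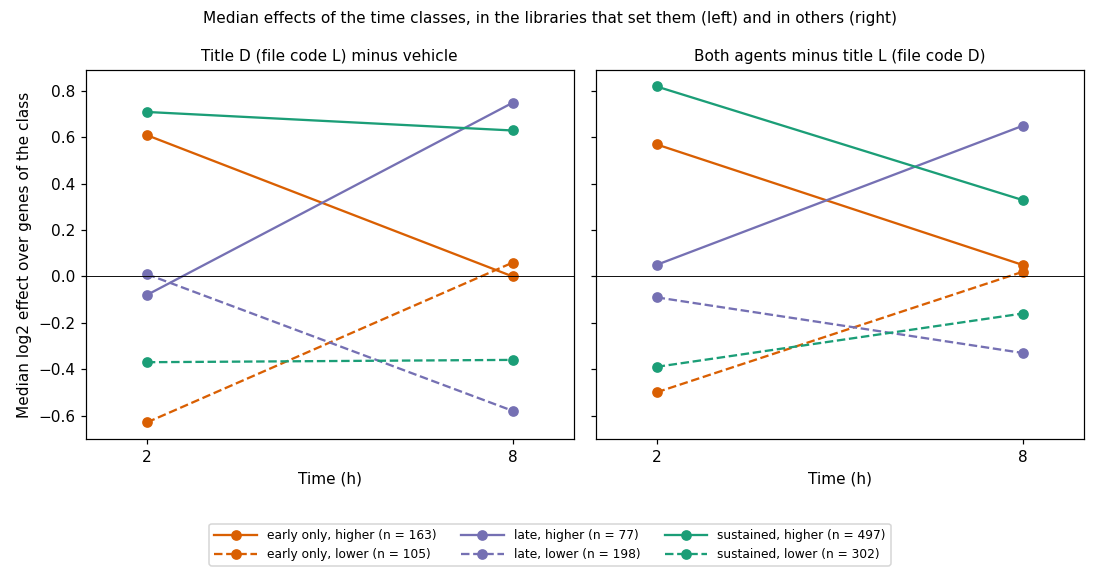
Median log2 effect of the genes in each time class and direction at 2 h and 8 h, in D/L (title D, file code L) minus vehicle on the left, where the medians follow from the sorting, and in both agents minus the agent titled L (file code D) on the right. On the right the early only medians are 0.57 and −0.50 at 2 h and 0.05 and 0.02 at 8 h, and the late medians are 0.05 and −0.09 at 2 h and 0.65 and −0.33 at 8 h.

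The classes also differed in gene structure, which the sorting did not use. Protein-coding late genes lower in D/L had a median genomic span of 43.6 kb (quartiles 18.1 and 126 kb) and 10 exons, beside 23.2 kb (9.8 and 54.7 kb) and 7 exons over all tested protein-coding genes. Early only genes higher in D/L had a median span of 35.4 kb and 6 exons, and early only genes lower in D/L 14.8 kb and 6 exons. Sustained genes were nearer to all genes, with 25.8 kb for those higher and 20.9 kb for those lower. The counts behind the genes differed as well, with a median of 53.0, 39.4 and 17.2 CPM, not scaled to transcript length, for early only, sustained and late genes higher in D/L, and 15.8 CPM over all tested genes. For genes lower in D/L the order was the other way, with 14.2, 33.7 and 34.1 CPM for early only, sustained and late genes. Calls are easier to reach with more counts, and no test was made of these descriptions. Spans and exon numbers come from the GENCODE M21 annotation.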

How the data were processed

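RNA of Ocy454 cells was sequenced from DNBSEQ libraries. The authors deposited, per the file headers, a table of estimated counts and TPM per Ensembl transcript for each library. TPM values are the authors' own, deposited with length and depth normalisation, and entered no test. Per the submitters' processing notes, mm39 was the genome build. What quantified the reads is not given in the sources used. Estimated counts were summed per gene by the GENCODE M21 identifiers, which matched 135078 of 139145 transcripts and at least 99.45% of counts, and rounded. Unmatched transcripts were left out.

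All 8 groups entered 1 fit in edgeR 4.0.16 (R 4.3.3), with TMM scaling, the filterByExpr minimum count of 10 (16424 genes kept) and the robust quasi-likelihood F test with Benjamini-Hochberg adjustment and a threshold of 0.05. The common biological coefficient of variation was 0.131 with 16 residual degrees of freedom. CPM uses TMM-scaled totals. Groups came from the titles. Replicates were checked for duplicate deposition, and within each group they differed beyond sampling noise (chi-square over degrees of freedom 7.08 to 133). On simulated 2-fold changes for these comparisons, run on 16008 genes, 71% of early only, 86% of sustained and 70% of late genes were recovered. The changed genes were drawn from those above a minimum mean count, so these shares do not cover sparser genes or smaller effects. Counting intervals cover counting error only.

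The members and gene lists were chosen with earlier results of these data known. Named genes were the largest differences past the threshold, list members with the smallest p, and a few fixed genes. The largest effects of each class were also named, where the mean was at least 1 CPM and the groups did not overlap. For those genes, separate groups at the defining time were a condition of naming and not a finding. Bach1, Btaf1, Phldb2 and Hhex were named for their place at the threshold, and Fos, Egr1, Zyx, Jun, Lox, Tnc, Etv5 and Id1, which the rule did not pick, after their values were seen. Of the genes examined singly, 2 are not reported here. Alternatives were median-of-ratios scaling, no filter, DESeq2 1.42.0, the 4 compared groups fitted alone, a replicate block, leaving out each of 12 libraries, and other class rules.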

Additional observations from a re-analysis of the deposited data

Results flagged for a closer look

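The effect of the D/L agent (title D, file code L) differed between 8 h and 2 h for 685 genes by the test of the difference itself in edgeR. Of these, 23 genes were called in opposite directions at the 2 times, 17 of them higher in D/L at 2 h and lower at 8 h and 6 the other way round.

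Among the genes that turned from higher to lower, Reps2, an endocytosis adaptor, had 1.70, 1.40 and 2.08 CPM in D/L against 1.11, 0.782 and 0.670 CPM in vehicle at 2 h, and 0.745, 0.609 and 0.554 CPM in D/L against 1.57, 1.74 and 1.62 CPM in vehicle at 8 h, a difference of −2.38 ± 0.38. Krtap1-5, a keratin-associated protein gene of a multigene family whose reads can be shared between copies, differed by −2.06 ± 0.28. Jag1, which encodes a Notch ligand, had 13.8, 14.7 and 14 CPM in D/L against 9.21, 11.3 and 10.9 CPM in vehicle at 2 h, and 6.23, 5.63 and 6.67 CPM in D/L against 8.51, 7.73 and 9.75 CPM in vehicle at 8 h, a difference of −0.92 ± 0.16. Dchs2, a protocadherin, differed by −1.43, Nrn1, the gene for neuritin, by −1.08, Fam107b by −0.83, Cemip2, a hyaluronidase gene, by −0.83 and Ctnnd1, which encodes p120 catenin, by −0.71.

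In the other direction, Tfap4, a helix-loop-helix factor, had 6.80, 6.48 and 5.79 CPM in D/L against 12.8, 10.9 and 11.4 CPM in vehicle at 2 h, and 18.2, 18.6 and 19.2 CPM in D/L against 14.8, 11.5 and 15.5 CPM in vehicle at 8 h, a difference of 1.30 ± 0.19. Slc1a4, a neutral amino acid transporter, had effects of −0.46 ± 0.08 and 0.50 ± 0.08 and a difference of 0.96 ± 0.11. Clip4 differed by 0.74, Ccn5, a matricellular protein gene, by 0.59 and Gpr180 by 0.52. The differences of these genes passed in all 12 fits without a library except that of Clip4, which was 0.69 (adjusted p = 0.061) without replicate 1 of the 2 h vehicle. The single effects were less firm: the 8 h effect of Tfap4 was 0.31 (adjusted p = 0.16) without replicate 2 of the 8 h vehicle. Of the 12 fits, Clip4 kept its 2 h call in 5 and its 8 h call in 4, Ccn5 its 2 h call in 6, Gpr180 each call in 8, and Dchs2 and Nrn1 their 2 h calls in 8, so that their place among genes called in opposite directions was not settled. Reps2, Jag1 and Ctnnd1 kept their 2 h calls in 10 of the 12 fits (adjusted p-values up to 0.063, 0.076 and 0.12). Krtap1-5 kept its 8 h call in 9 (up to 0.06), so the place of these genes was not settled either. Slc1a4, Fam107b and Cemip2 kept both calls in all 12 fits.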

How the results depend on the processing

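Median-of-ratios scaling left each count of calls and each class within 1.5 times its value. Without a filter on low counts the difference was called for 1046 genes, 621 more positive and 425 more negative, with 146 sustained lower and 404 late higher genes. DESeq2 gave 162 early only lower genes and the 4 compared groups alone 64. With classes set by the calls at the 2 times alone, early only genes numbered 646 higher and 817 lower and late genes 793 and 1047. With effects of at least 2-fold, early only genes numbered 30 and 16, sustained genes 76 and 2, and late genes 22 and 27.

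Leaving out 1 library at a time gave 1487 to 2552 calls at 2 h, 1518 to 3408 at 8 h and 449 to 797 of the difference. Early only genes ran from 114 to 177 higher and 61 to 112 lower, sustained genes from 358 to 519 and 199 to 306, and late genes from 51 to 130 and 98 to 237. The 2 h calls were fewest without replicate 2 of the 2 h D/L group (1487), and calls at 8 h were 1518 without replicate 2 of the 8 h vehicle, 1720 without replicate 2 and 1649 without replicate 3 of the 8 h D/L group. The difference was called for 449 genes without replicate 1 of the 2 h vehicle, and late higher genes numbered 130 without replicate 3 of the 8 h vehicle and 51 without replicate 3 of the 8 h D/L group. Early only lower genes numbered 61 without replicate 1 of the 2 h vehicle and 69 without replicate 3 of the 8 h D/L group, and sustained lower genes 199 without replicate 2 of the 2 h D/L group and 200 without replicate 3 of the 8 h D/L group. The cause of these shifts was not tested. Without replicate 2 of the 8 h vehicle, 184 of the 268 early only, 531 of the 799 sustained and 140 of the 275 late genes kept their class.

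With the replicate number as a block, 2199 genes were called at 2 h, 2598 at 8 h and 594 for the difference. Deviations of same-numbered libraries from their group means were nearly uncorrelated over genes (correlations −0.12 to 0.10). Noise in sparse genes can mask a shared part, so whether the numbers pair libraries was not settled. The main fit did not pair them. Of 65 called differences among the 78 genes examined singly, 60 held without each library in turn and none changed sign under an alternative. Without the filter, the differences of Ltbp1, Plk1, Vdr, Clip4 and Gpr180 missed the threshold (adjusted p-values 0.06, 0.16, 0.066, 0.058 and 0.074), and with the 4 compared groups alone those of Egr1, Tnc, Ltbp2, Plk1 and Clip4 (0.065, 0.052, 0.052, 0.051 and 0.063). Depth limits genes near the filter, such as Il6 at 8 h.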
